A study of Mus musculus with 22 samples.

Results

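Serum was added back to starved mouse fibroblasts, and RNA taken after 2 h was compared with RNA taken after 6 h, the interval in which the earliest transcripts of the serum response were followed down and later transcripts followed up. The comparison used 4 of the 22 libraries of the series, 2 replicates at each time, and all 11208 genes of the deposited table. The cells were NIH/3T3, an immortalised mouse embryo fibroblast line, with a stably integrated construct for doxycycline-inducible expression that carried no insert (empty vector, EV). After 48 h in 0.25% serum they received 10% serum. The control for elapsed time was the same EV line, starved in the same way and given 500 ng/ml doxycycline in place of serum, with 2 libraries at 2 h and 2 at 6 h. EV cells at 0 h (starved) and at 12 h of serum gave the levels before and after the interval. Every EV library, treated or not, came from cells with the empty construct, and a second line with an inducible E2F1 construct was used here only for the shared estimate of the spread and for a check of the lines. Nothing in the labels says that the replicates came from separate cultures, so the p-values measure the spread between these libraries, which may be technical.

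Growth factors in serum act through receptors on the ERK pathway, and within minutes they switch on immediate early genes without new protein synthesis. Many of these encode transcription factors (FOS, EGR and NR4A families), cytokines and the phosphatases that later turn the pathway off. Their mRNAs are short lived, often because AU-rich elements in the 3′ untranslated region recruit decay factors such as ZFP36, so their levels drop soon after transcription stops. Delayed early genes follow, among them D-type cyclins, and genes that mark quiescent cells, many of them targets of FOXO factors, are repressed while growth signalling is strong.

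Values are the authors' normalised read counts, and a log2 change is the difference of log2(value + 1) between the mean of the 6 h and of the 2 h libraries. A gene was called when limma's Benjamini-Hochberg adjusted p over all 11208 genes was at most 0.05. Totals were 45073651 and 46057140 at 2 h and 40132639 and 41407438 at 6 h, against 34014608 to 46057140 over all libraries. Replicates differed by a median of 0.109 (absolute log2) at 2 h and 0.160 at 6 h, the latter the widest of the 11 groups. Of 11 fibroblast markers all were measured, of 8 immune markers 2 (Cd14 and Csf1r), of 5 adipocyte markers 1 (Lpl), and none of the epithelial, endothelial or muscle markers.

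The 2 h libraries stood apart in genes that differ between the lines. At 0 h, 239 genes were at least 2-fold apart between the E2F1 and EV lines with libraries that did not overlap, 174 of them higher in the E2F1 line. These 174 genes lay at a median log2 of 0.46 and 0.62 above EV 0 h in the serum 2 h libraries. In the doxycycline 2 h libraries they lay 0.73 and 0.75 above it, and in the serum 6 h libraries -0.25 and -0.56 from it. The genes were chosen in part for low EV 0 h values, so some shift above EV 0 h is built in. In doxycycline their medians were 0.23 and -0.01 at 6 h and 0.23 and 0.07 at 12 h. The Y-linked gene Ddx3y, which at 0 h had values of 580 and 521 in the E2F1 line but 9 and 4 in the EV line, stood at 132 and 170 in EV cells at 2 h of serum and at 48 and 35 at 6 h. Of the 174 genes, 97 were called lower in the serum step and 84 were at least 2-fold lower, which is 13.3% of all 2-fold falls. Whether the EV 2 h libraries, with serum or doxycycline, held some RNA of the E2F1 line was not tested, and the 2 h values are to be read with that limit. A named gene among the 239 is marked below as a line gene, and the part of the line difference in its change was not tested. Calhm5, Gdf5 and Rn7sk are line genes that were lower in the E2F1 line. Ribosomal-RNA-like transcripts were also higher at 2 h, unevenly between the replicates: CT010467.1 took 0.351% and 0.975% of the total at 2 h and 0.126% and 0.206% at 6 h, and the 7SK RNA gene Rn7sk was at 72 and 3606 at 2 h and 20 and 45 at 6 h. Mitochondrial transcripts took 2.05% to 2.12% in all 4 libraries.

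Between 2 h and 6 h of serum, cytokines such as Lif and Inhba and transcription factors such as Fosb fell more than 10-fold from their 2 h peak, while genes that had been low at 2 h, such as Txnip and Mllt3, rose more than 7-fold. In all 5440 genes (48.5%) were called, 2722 (24.3%) higher and 2718 (24.3%) lower. At least a 2-fold change was reached by 1173 genes (10.5%), 543 (4.84%) higher and 630 (5.62%) lower. The 6 h libraries both exceeded the 2 h ones in 3951 genes (35.3%) and both fell short of them in 4098 (36.6%). With the libraries scaled to equal totals the median of all genes moved up by 0.16 on the log2 scale, and the calls were 4077 higher and 1793 lower, so the direction of small changes depends on the scaling. Counts under that scaling are given beside those of the lists. Each list count is to be read against the 24.3% of all genes called in each direction. Without the line genes 521 genes were at least 2-fold higher and 535 at least 2-fold lower.

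The median level of the genes that fell was higher at 2 h than at rest, and that of the genes that rose was lower. This follows in part from how the sets were chosen, which was by the change from 2 h to 6 h. The median level of the 630 genes that fell was 874.75 at 0 h, 1839.5 at 2 h, 635.5 at 6 h and 617.5 at 12 h. For the 543 genes that rose it was 496.5, 179.0, 469.5 and 520.5 at the same times, against 1259.0, 1322.5, 1323.25 and 1347.25 for all genes. The 2 h and 6 h levels chose these sets. Levels at 0 h and 12 h had no part in that choice, although those libraries entered the shared estimate of the spread behind the calls. By 12 h, 393 (72.4%) of the genes that rose lay within 2-fold of their 0 h level, as did 326 (51.7%) of those that fell and 80.7% of all genes. A further 232 (36.8%) of the genes that fell were at least 2-fold below rest at 12 h and 72 (11.4%) above, whereas 8.98% and 10.3% of all genes were.

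**Figure D1:**
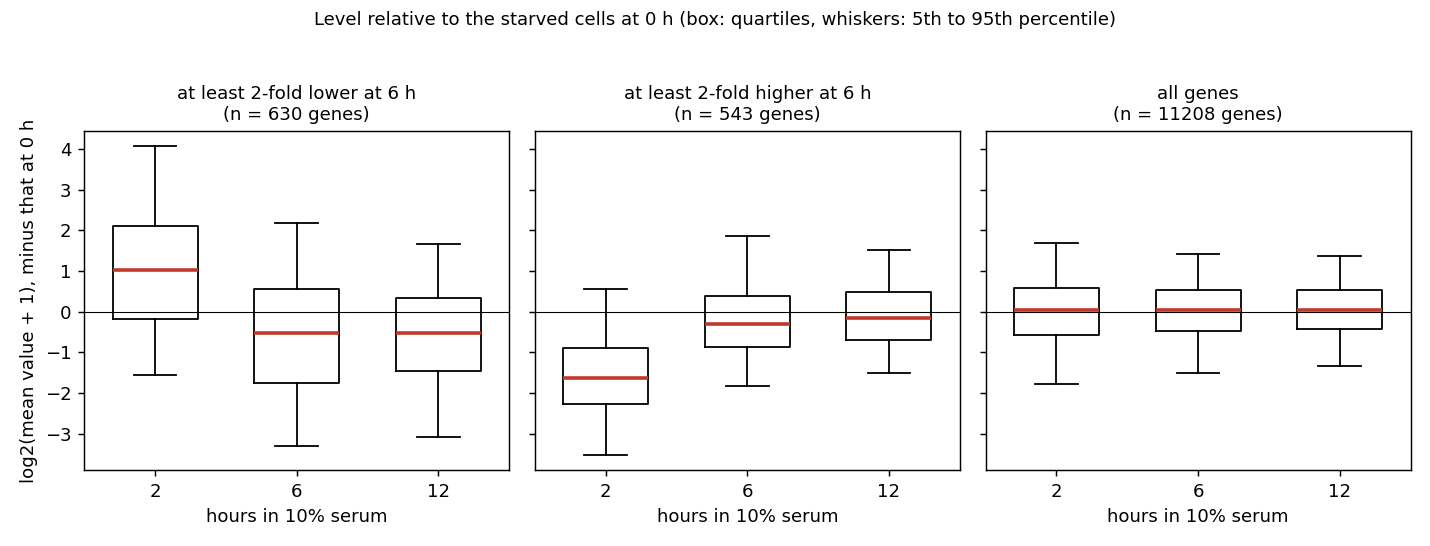
Log2(mean value + 1) of each gene at 2, 6 and 12 h of serum minus that at 0 h, for the 630 genes at least 2-fold lower at 6 h, the 543 at least 2-fold higher and all 11208 genes (box: quartiles, red line: median, whiskers: 5th to 95th percentile). The 2 h and 6 h boxes follow from how the sets were chosen, and the 12 h boxes show levels that entered the choice only through the shared estimate of the spread.

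Most immediate early transcription factors fell. Of 37 measured members 29 were lower at 6 h, 15 of them by at least 2-fold, and 1 was higher, with a median log2 change of -0.96 against -0.0039 for all genes. Without 3 line genes the counts were 27 lower and 1 higher of 34, and with equal totals 28 lower and 1 higher of 37. Fosb, a FOS family partner of JUN in AP-1, was at 143 and 216 at 0 h, 977 and 988 at 2 h, 61 and 82 at 6 h and 79 and 100 at 12 h, and its change from 2 h to 6 h was -3.78 on the log2 scale (SE 0.31, adjusted p = 2.71e-08). Both 6 h values lay below the resting ones. Fos itself, the prototype of the class, peaks within the first hour in many cells and was already modest at 396 and 406 at 2 h. It fell to 139 and 60 at 6 h (log2 change -2.12, SE 0.45, adjusted p = 0.000715). Junb, a JUN family member, went from 11300 and 10896 to 3862 and 3462 (log2 change -1.60), and Klf6, a zinc finger factor, from 9383 and 9272 to 4975 and 5011 (log2 change -0.90). Atf3, a stress-induced bZIP factor and a line gene, had the largest fall of the list, from 575 and 673 to 82 and 20. The 6 h replicates of Atf3 were far apart, and its log2 change of -3.90 had an SE of 0.80.

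Egr2, a zinc finger factor picked out after its values were seen, was at 185 and 368 at rest, 4707 and 4575 at 2 h and 576 and 411 at 6 h (log2 change -3.25, SE 0.38, adjusted p = 1.63e-06). Its relative Egr1 did not follow: it was at 3313 and 3708 in starved cells, 868 and 838 at 2 h and 1183 and 752 at 6 h, and the change of 0.15 was not called (adjusted p = 0.626). Egr1 was then below rest at both times, with 6 h libraries on both sides of the 2 h values. The orphan nuclear receptors Nr4a1 and Nr4a3, also picked out afterwards, went from 15010 and 18520 to 3290 and 2298 and from 454 and 596 to 39 and 80. Myc, the growth regulator, stayed up: it was at 1723 and 1865 at 0 h, 4343 and 4251 at 2 h, 4745 and 3449 at 6 h and 3798 and 3834 at 12 h, and its change of -0.09 (SE 0.15, adjusted p = 0.662) changed sign with equal totals. Fosl1, a FOS family member known to outlast Fos, went from 3064 and 2991 to 1873 and 1633 (log2 change -0.79, adjusted p = 0.0307), a call that was lost in 6 alternatives, with equal totals among them. The 1 member that rose was Snai2, a repressor of epithelial genes, at 1197 and 966 at rest, 194 and 126 at 2 h and 268 and 246 at 6 h, a rise that was not called in the fit of only the groups compared (adjusted p = 0.0698) or without 2 h replicate 2 (log2 change 0.40, adjusted p = 0.137).

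Serum response factor, encoded by Srf, binds CArG boxes, an A/T-rich element, in promoters of the class and in its own. Srf went from 12403 and 13786 at 2 h to 7939 and 7803 at 6 h and 3908 and 4375 at 12 h, with 2675 and 4520 at rest (step log2 change -0.73, SE 0.19, adjusted p = 0.00454). Promoters from RefSeq (GRCm38.p6, 250 bases before to 50 after a start) were found for 8609 of the 11208 genes, and both strands were searched. A CArG box was present in 1.51% of them, in 3.06% of the 458 with a 2-fold fall and in 0.735% of the 408 with a 2-fold rise. The promoter windows of Egr2 and Srf are shown because both genes fell and hold such a box upstream of a start (capitals: the CArG box, lower case: 15 flanking bases on each side, strand of the gene).
Egr2 (chr10:67537479-67537518, plus strand): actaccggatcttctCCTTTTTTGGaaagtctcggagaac
Egr2 (chr10:67537782-67537821, plus strand): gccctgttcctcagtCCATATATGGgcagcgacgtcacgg
Srf (chr17:46556200-46556239, minus strand): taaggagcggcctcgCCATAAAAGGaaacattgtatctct
Srf (chr17:46556220-46556259, minus strand): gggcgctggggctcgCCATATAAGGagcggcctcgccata
The nearest end of the boxes lay 62 bases upstream of the listed start in both Egr2 windows, which belong to different starts, and 52 and 72 bases upstream in Srf, whose windows overlap. Other motifs were no more than descriptions of these windows. The cyclic AMP element TGACGTCA was in 3.93% of the promoters of genes that fell, 1.96% of those that rose and 3.81% of all. The AP-1 element (TGACTCA or its complement TGAGTCA, neither overlapping the cyclic AMP element) was in 5.90%, 5.39% and 4.15% in the same order, and CCAAT in 39.1%, 52.9% and 44.0%. Of a pair of E2F elements, TTTCCCGC was in 1.53%, 3.43% and 2.66% and TTTGGCGC in 0%, 0.735% and 1.18%. The E-box CACGTG was in 9.83%, 11.03% and 12.1%, and the EGR element GCGTGGGCG in 1.53%, 1.23% and 1.53%.

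Inhibitors of the ERK pathway, which the same pathway induces, went down with the transcription factors. Of 22 measured members 15 fell, 11 of them by at least 2-fold, and none rose, with a median log2 change of -0.92, and 15 fell with equal totals too. Dusp4, a nuclear MAP kinase phosphatase and a line gene, went from 3571 and 3428 at 2 h to 484 and 339 at 6 h. Dusp6, the cytoplasmic phosphatase specific for ERK, went from 16188 and 15030 to 10081 and 7472 (log2 change -0.85, SE 0.18, adjusted p = 0.000743), and was still at 6118 and 5940 at 12 h against 1585 and 1912 at rest. Spry4, a Sprouty inhibitor of receptor signalling, had 1295 and 1300 at 2 h and 750 and 377 at 6 h, and its call was lost without 6 h replicate 2 (log2 change -0.79, adjusted p = 0.0757). Ier3, an early survival factor, went from 7488 and 6922 to 2837 and 1443. Dusp1, the classic early phosphatase, showed no such course, with 3288 and 1833 at rest, 1209 and 1470 at 2 h and 2118 and 991 at 6 h. It was not called (log2 change 0.12, adjusted p = 0.815). Exons of another annotated gene, Ergic1, overlap Dusp1, so its values may not be of Dusp1 alone.

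Of 29 factors that destabilise mRNA 12 fell and 4 rose, with a median of -0.20 that was -0.04 with equal totals (8 lower, 7 higher). Zfp36, whose protein binds AU-rich elements, went from 851 and 688 at rest to 3068 and 2696 at 2 h and 1260 and 1142 at 6 h (log2 change -1.26, SE 0.16, adjusted p = 3.42e-06). Btg2, an antiproliferative cofactor of the deadenylase complex and a p53 target, fell from 2958 and 3043 to 633 and 511, close to its 697 and 887 at rest. Its relative Tob1 moved the other way, from 1341 and 1542 at rest to 322 and 408 at 2 h and 502 and 871 at 6 h. Among 15 genes of NF-kB and its inhibitors 9 fell and 1 rose (5 and 2 with equal totals). Nfkbia, the inhibitor that NF-kB itself induces, went from 2856 and 2729 to 1771 and 994, and Relb, a subunit of the alternative pathway, from 2361 and 2548 to 994 and 534. The rise was Cyld, a deubiquitinase that restrains NF-kB, from 834 and 1070 at 2 h to 2483 and 3011 at 6 h, with 3298 and 2680 at rest (log2 change 1.53, SE 0.12).

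Secreted factors and their receptors held the largest fall of any list member, that of Lif. Of 44 measured members 31 fell, 20 of them by at least 2-fold, and 1 rose, with a median of -0.94, and 29 fell both without 4 line genes and with equal totals. Lif (GRCm38 chromosome 11, 4257557 to 4272514), the cytokine leukaemia inhibitory factor, was at 62 and 73 in starved cells, 13633 and 11103 at 2 h, 905 and 304 at 6 h and 321 and 202 at 12 h. Its fall was -4.55 on the log2 scale (SE 0.59, adjusted p = 5.72e-06), with 6 h replicates that differed from each other but not so far as to reach the 2 h values. Inhba (GRCm38 chromosome 13, 16011851 to 16031621), the subunit of activin A, was at 131085 and 123956 at 2 h, against 678 and 723 at rest. It dropped to 10089 and 10955 at 6 h and 3168 and 3365 at 12 h, and the step was -3.60 on the log2 scale (SE 0.18, adjusted p = 7.06e-11).

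Ptgs2, the inducible cyclooxygenase of prostaglandin synthesis, reached 275844 and 241108 at 2 h and still stood at 41913 and 41625 at 6 h and 21107 and 20245 at 12 h, against 4606 and 6123 at rest. The fall was 6.19-fold on the means, yet the 6 h level remained well above rest in both libraries. Hbegf, a ligand of the EGF receptor, followed the same course, with 19352 and 18561 at 2 h, 4526 and 3915 at 6 h and 494 and 624 at rest. The chemokines were less even: Ccl2 had 8359 and 1841 at 6 h after 13393 and 16403 at 2 h and lost its call without 6 h replicate 2 (log2 change -0.83, adjusted p = 0.153). Cxcl1, a line gene, was at 304 and 525 at 2 h and 367 and 75 at 6 h and was not called (adjusted p = 0.187), although it was without 6 h replicate 1 (log2 change -2.40, adjusted p = 0.0283). The member that rose was Fgf7, keratinocyte growth factor, from 10844 and 11394 to 16087 and 12883, with 14984 and 13266 at rest. Its log2 change of 0.37 became 0.34 without 2 h replicate 1 and 0.21 without 6 h replicate 1, and was not called in either. Fgf7 rose in doxycycline too, by a log2 of 0.60 (adjusted p = 0.00643), and the difference of -0.23 was not called (adjusted p = 0.328). Vegfa and Ereg, growth factors picked out after their values were seen, went from 82233 and 74185 to 10771 and 8253 and from 34747 and 30564 to 6438 and 3019.

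**Figure D2:**
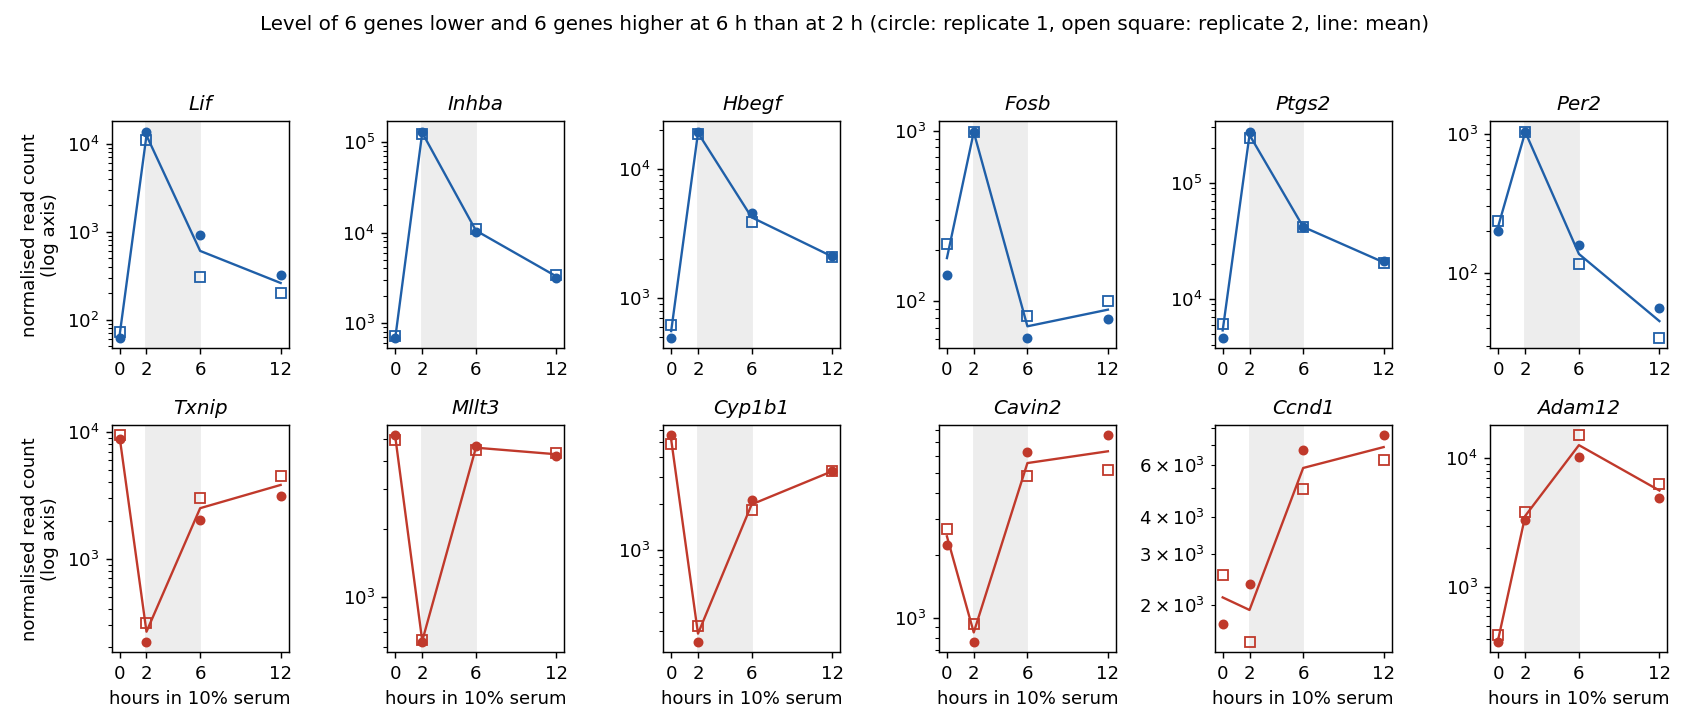
Normalised read count (log axis) of 12 genes in each EV library at 0, 2, 6 and 12 h of serum (circle: replicate 1, open square: replicate 2, line: mean, grey band: the interval from 2 h to 6 h). The upper genes peak at 2 h, and of the lower ones Txnip, Mllt3, Cyp1b1 and Cavin2 dip at 2 h, Ccnd1 first climbs at 6 h and Adam12 is highest at 6 h.

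AU-rich elements, which the decay factors bind, are shown for 5 genes that fell at least 6-fold on the means. These were picked by hand, and a gene without the element could not be shown. Dusp4, Arc and Agtr2, which fell 8.50-fold, 26.7-fold and 61.1-fold on the means, hold 0 copies of TATTTAT. The windows, from GENCODE M21 transcripts on GRCm38, hold the copy closest to the stop codon, of the 9-base form where the transcript has it and otherwise of the 7-base form (capitals: the element, lower case: 9 flanking bases on each side, strand of the mRNA with T for U).
Atf3 (chr1:191170340-191170364, minus strand): aatattactTATTTATcccagtatt
Fosb (chr7:19303328-19303352, minus strand): acccccagcTATTTATccctttcct
Inhba (chr13:16029047-16029073, plus strand): ttatatttaTTATTTATTggaatcaat
Lif (chr11:4272040-4272066, plus strand): aaggggcctTTATTTATTatttaaaac
Ptgs2 (chr1:150105791-150105817, plus strand): tgaccatatTTATTTATTtatgtgaag
Inhba, with a 3′ untranslated region of 4492 bases, holds the 7-base element TATTTAT 5 times, Lif 5 times in 3180 bases and Ptgs2 6 times in 2445 bases.

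The share of genes that fell at least 2-fold climbed with the number of these elements. Among the 10502 genes with an annotated coding transcript it was 4.94% of the 7504 with no TATTTAT, 6.34% of the 1971 with 1 copy, 8.90% of the 652 with 2, 9.58% of the 240 with 3 and 16.3% of the 135 with 4 or more. The share that rose at least 2-fold showed no such order, at 4.86%, 4.87%, 4.45%, 6.67% and 3.70%. Longer untranslated regions hold more copies by length alone, with medians from 729 bases at 0 copies to 3608 bases at 4 or more. Genes whose transcript has a short or absent annotated region, such as Acss2 with 0 bases, are counted among those with 0 copies. Among regions of 1000 to 2000 bases the share that fell was 5.48% with 0 copies, 7.24% with 1 and 11.6% with 2 or more, and among those of 2000 to 4000 bases it was 4.11%, 6.13% and 10.1%. Base composition was not matched. The longer element TTATTTATT was present in 13.5% of the genes that fell, 6.26% of those that rose and 7.50% of all genes. In 40.2% of the falls left without line genes a TATTTAT was present, against 38.1% of all falls and 28.5% of all genes.

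**Figure D3:**
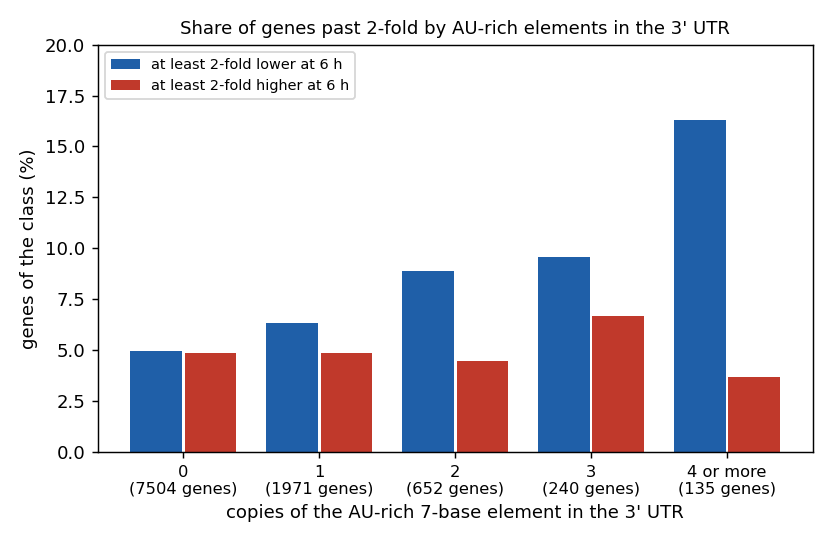
Share of genes (%) at least 2-fold lower (blue) and at least 2-fold higher (red) at 6 h than at 2 h of serum, by copies of the 7-base AU-rich element in the 3′ untranslated region. Blue bars climb from 4.94% with 0 copies to 16.3% with 4 or more, and red bars stay between 3.70% and 6.67%.

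TGF-beta signalling genes were called lower in 13 of 21 members and higher in 3 (12 and 4 with equal totals). Smad3, the transcription factor that carries the signal, went from 4716 and 4976 to 1995 and 1175 (log2 change -1.66, SE 0.16). Of the inhibitory SMADs, Smad7 fell from 5627 and 5533 to 3602 and 4047 and Smad6 rose from 448 and 562 to 1033 and 1782 (log2 change 1.43, adjusted p = 1.87e-05). Among YAP and TEAD targets 7 of 19 fell and 8 rose (7 and 10 with equal totals). Ajuba, a LIM protein that restrains the LATS kinases, rose from 2177 and 2934 to 4168 and 4848, and Tgfb2, a TGF-beta ligand and a line gene, fell from 401 and 340 to 95 and 102. Ccn1, a secreted matricellular protein, went from 98252 and 106368 to 77159 and 53967 with 3366 and 5576 at rest, and its log2 change of -0.66 was not called (adjusted p = 0.0921), except in the fit of only the groups compared (adjusted p = 0.0138).

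Actin and adhesion genes, targets of SRF with its actin-regulated cofactors, divided by gene rather than moving together. Of 41 members 11 fell (26.8%, against 24.3% of all genes), 4 rose (9.76%) and 26 were not called. With equal totals 7 fell and 9 rose, so the list has no direction of its own. The largest fall was Itga5, the fibronectin receptor subunit alpha 5, from 59506 and 58410 at 2 h to 12530 and 11971 at 6 h with 3682 and 3736 at rest (log2 change -2.27, SE 0.09, adjusted p = 3.53e-12). Acta2, smooth muscle actin, held its rise: it was at 6729 and 8028 at rest, 56057 and 62434 at 2 h, 66721 and 65475 at 6 h and 51992 and 49641 at 12 h, and its change of 0.16 was not called (adjusted p = 0.347), except with quantile normalisation (0.38, adjusted p = 0.0412). Lmod1, a nucleator of actin filaments and a line gene, rose from 162 and 192 to 558 and 441.

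Among matrix genes 18 of 37 fell and 5 rose (13 and 5 of 32 without line genes, 15 and 6 of 37 with equal totals). Postn, periostin, had the largest fall, from 13040 and 13135 to 2010 and 1198, but it is a line gene that also fell in doxycycline, from 11079 and 12471 at 2 h to 3888 and 1286 at 6 h. Fbn1, the microfibril protein fibrillin 1, rose from 11286 and 12670 to 20217 and 20100 (log2 change 0.75, adjusted p = 4.6e-05). Col1a1, the alpha 1 chain of type I collagen, went from 192950 and 228317 to 310568 and 294202 (adjusted p = 0.0208), a call lost without 2 h replicate 1 (log2 change 0.40, adjusted p = 0.161), without 6 h replicate 1 (0.49, adjusted p = 0.0905) and without 6 h replicate 2 (0.57, adjusted p = 0.0514). Of 21 matrix proteases and inhibitors 11 fell and 3 rose (10 and 4 with equal totals). Adamts5, an aggrecanase, was at 13864 and 10549 at rest, 168 and 202 at 2 h and 758 and 1208 at 6 h, and with 2367 and 2994 it was still short of its resting level at 12 h. Adam12, a metalloprotease of the ADAM family, kept climbing, from 377 and 427 at rest to 3333 and 3820 at 2 h and 10254 and 14999 at 6 h (log2 change 1.80, SE 0.24, adjusted p = 7.08e-06), and was at 4952 and 6286 at 12 h. Serpine2, protease nexin 1 and a line gene, fell from 523 and 626 to 95 and 47.

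Clock genes fell without exception among those called. Of 16 members 12 fell, 5 by at least 2-fold, and none rose, with a median of -0.77 (10 and none with equal totals). Per2, a repressor of the clock that serum is known to induce, went from 200 and 237 at rest to 1031 and 1019 at 2 h, 158 and 115 at 6 h and 56 and 34 at 12 h, ending below rest in both libraries (step -2.92 on the log2 scale (SE 0.27, adjusted p = 1.03e-07)). Its paralog Per1 went from 2243 and 2841 to 934 and 1368 (log2 change -1.16, SE 0.18).

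**Figure D4:**
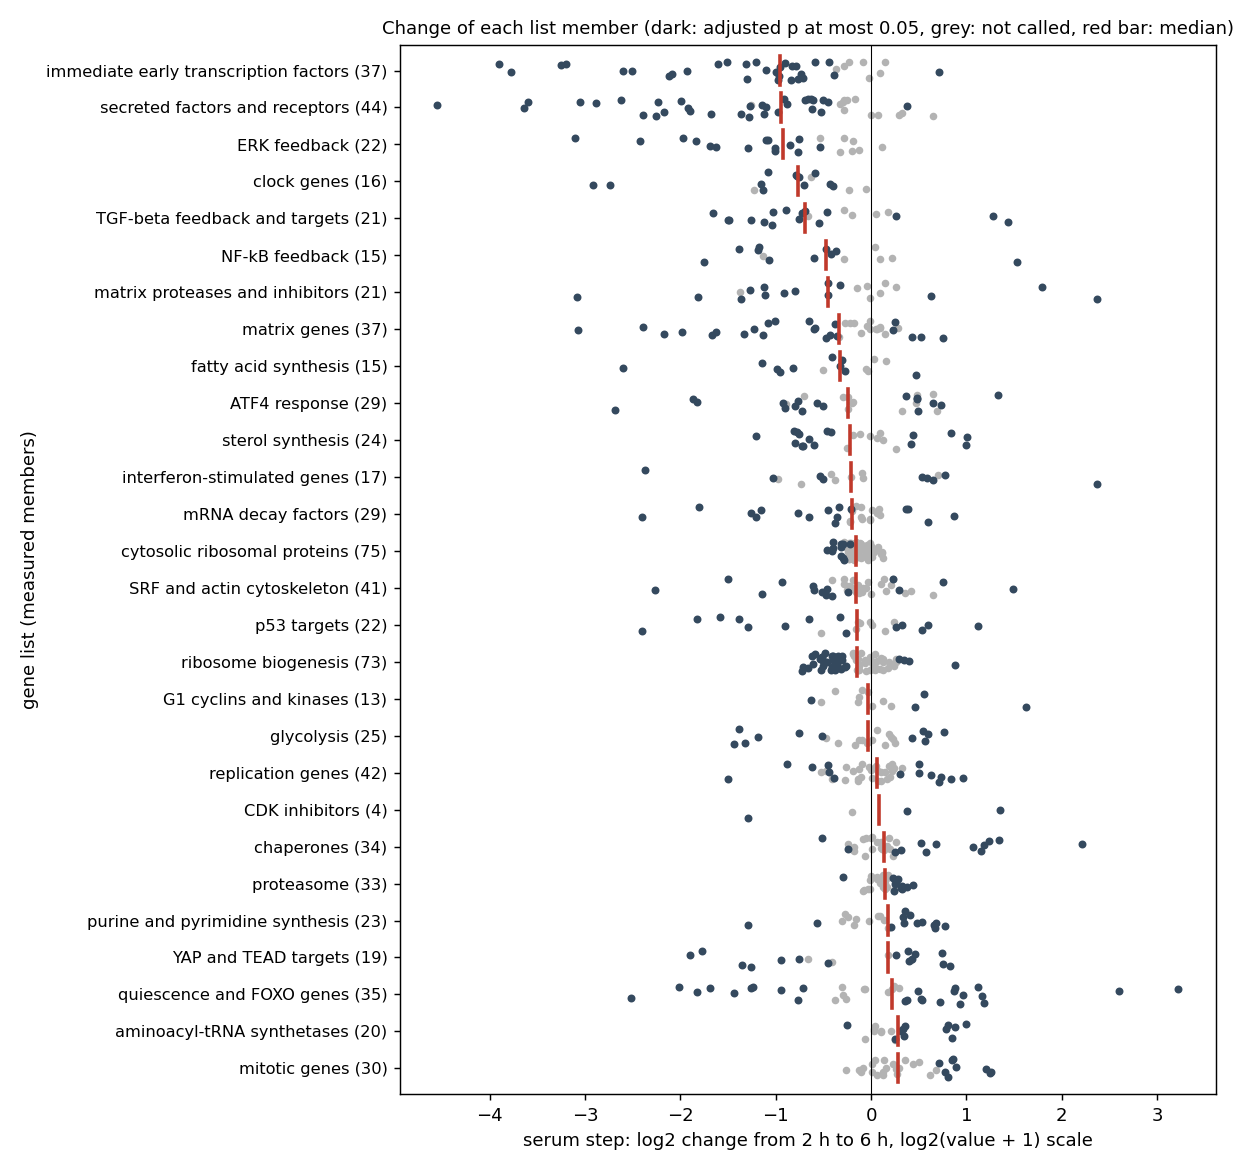
Log2 change from 2 h to 6 h of serum (x axis, log2(value + 1) scale) for each measured member of 28 gene lists (y axis, number of members in brackets), dark where the adjusted p was at most 0.05, with the list median as a red bar. Medians run from -0.96 for immediate early transcription factors to 0.28 for aminoacyl-tRNA synthetases and mitotic genes.

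Of the 12 largest rises 11 were of genes whose 2 h values both lay below rest. Of those, 7 were still below rest in both 6 h libraries, 3 were above it in both and 1 overlapped it. The 12 were ranked by the change from 2 h to 6 h, so low 2 h values follow in part from the choice. The matching shares over all genes are not given here, so these counts only describe the 12. Txnip (GRCm38 chromosome 3, 96557957 to 96561883), an arrestin-like inhibitor of glucose uptake and thioredoxin, was at 8768 and 9387 at rest, 221 and 311 at 2 h, 2008 and 3007 at 6 h and 3120 and 4529 at 12 h. The step was 3.22 on the log2 scale (SE 0.25, adjusted p = 1.04e-08), and neither later time reached the resting values. Its relative Arrdc4 returned further, from 151 and 226 at 2 h to 1154 and 1091 at 6 h and 1347 and 1568 at 12 h with 1542 and 1611 at rest. An antisense transcript, Gm15441, overlaps exons of Txnip, and the use of strand in counting is not given in the sources used here, so their reads cannot be told apart.

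Mllt3 (GRCm38 chromosome 4, 87769925 to 88033364), the super elongation complex component AF9, had the smallest SE of the 12 largest rises. It was at 5204 and 4952 at rest, 632 and 645 at 2 h, 4696 and 4493 at 6 h and 4223 and 4369 at 12 h, and the step was 2.84 on the log2 scale (SE 0.08, adjusted p = 9.05e-14). Cyp1b1, a cytochrome P450 that the aryl hydrocarbon receptor induces, went from 5537 and 4888 at rest to 255 and 322 at 2 h and 2132 and 1832 at 6 h. Rassf2, a RAS association domain protein, went from 1599 and 1632 to 118 and 212 and 1311 and 755, and Calhm5, a calcium homeostasis modulator family member and a line gene, from 312 and 296 to 26 and 24 and 204 and 195. These 3 dipped at 2 h and were still below rest in both 6 h libraries. Clip4, a CAP-Gly domain protein, had low values throughout, 159 and 109 at rest, 13 and 6 at 2 h and 97 and 62 at 6 h.

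Other rises went past rest. Cavin2, a coat protein of caveolae, was at 2253 and 2686 at rest, 766 and 936 at 2 h, 6300 and 4826 at 6 h and 7551 and 5126 at 12 h (step log2 change 2.70, SE 0.15, adjusted p = 3.32e-10). Ccdc9b, a coiled-coil protein, went from 448 and 545 to 3342 and 2772 with 2488 and 2068 at rest. Tent5b, of the TENT5 family of poly(A) polymerases, went from 126 and 173 to 884 and 1011 with 626 and 646 at rest, so that both 6 h values of these 3 genes lay above both resting values. Fgf10, a fibroblast growth factor, came back to 718 and 544 from 110 and 90, a range that overlaps its 684 and 497 at rest. The gene of the 12 that was not below rest at 2 h was U90926, which GENCODE M21 lists as protein coding and which was nearly silent at rest, with 3 and 7. It kept climbing from 58 and 82 at 2 h to 746 and 432 at 6 h and 2034 and 763 at 12 h. Its call was lost without 2 h replicate 1 (log2 change 2.78, adjusted p = 0.056) or 6 h replicate 1 (2.63, adjusted p = 0.0678).

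Genes tied to quiescence and FOXO factors parted in both directions. Of 35 members 15 rose (42.9%) and 10 fell (28.6%), against 24.3% of all genes in each direction (18 and 10 with equal totals). By at least 2-fold 5 rose and 7 fell. Those that rose included Txnip, Arrdc4 and Sesn1, a stress-induced inhibitor of mTORC1 and a p53 target, which went from 2506 and 2732 at rest to 314 and 389 at 2 h and 891 and 651 at 6 h. The largest fall was Gas6, the ligand of AXL and a line gene, from 1696 and 1984 to 350 and 290. Among the p53 targets as a whole 9 of 22 fell and 5 rose (7 and 7 with equal totals), with Btg2 and Sesn1 at the ends. Of 4 measured CDK inhibitors, Cdkn1a (p21) fell from 8505 and 7608 at 2 h to 3145 and 3454 at 6 h with 2128 and 2064 at rest (log2 change -1.29, SE 0.10, adjusted p = 1.74e-08). Cdkn2d (p19INK4d) rose from 104 and 68 to 153 and 305 but remained below its 431 and 576 at rest.

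Cyclin D1 marked the delayed early phase. Ccnd1, which drives CDK4 and CDK6 in G1, was at 1724 and 2535 at rest, 2357 and 1503 at 2 h, 6760 and 4971 at 6 h and 7563 and 6251 at 12 h. The 2 h values overlapped the resting ones and both 6 h values lay above them, a log2 change of 1.62 (SE 0.24, adjusted p = 2.16e-05). Exons of another annotated gene, LTO1, overlap Ccnd1. In its list 3 of 13 members rose (23.1%, against 24.3% of all genes) and 1 fell (5 and 1 with equal totals). Ccne1, cyclin E1, went from 785 and 607 to 1128 and 915 (adjusted p = 0.043), a call lost without 2 h replicate 2 (log2 change 0.37, adjusted p = 0.289), without 6 h replicate 1 (0.41, adjusted p = 0.235) and with quantile normalisation (0.46, adjusted p = 0.0856). Cdk6, a partner of the D-type cyclins, fell from 1562 and 1434 to 1121 and 836.

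Most replication genes were not called. Of 42 members 8 rose (19.0%), 6 fell (14.3%) and 28 were not called, with a median of 0.06 (12 and 2 with equal totals). Of all 11208 genes 24.3% were called in each direction and 5768 were not called. Cdc6, the licensing factor and a line gene, rose from 328 and 220 at 2 h to 527 and 526 at 6 h and then stood at 3069 and 2615 at 12 h. Mcm5, a subunit of the replicative helicase, was at 1865 and 1912 and 1862 and 1587 at the same times and at 12093 and 10889 at 12 h. Its step was not called (log2 change -0.14, adjusted p = 0.615). Prim2, the large subunit of primase, fell from 1080 and 1083 to 376 and 387 with 399 and 607 at rest. Ung, the uracil DNA glycosylase, rose from 135 and 216 to 465 and 385 and was at 1522 and 1370 at 12 h, and its call was missed without 2 h replicate 1 (log2 change 0.97, adjusted p = 0.0511). Of 30 mitotic genes 9 rose (30%, against 24.3% of all genes) and none fell. With equal totals 10 rose and none fell, and with quantile normalisation 6 and none. The summed values of the list were 38193 and 30744 at 2 h and 31828 and 56228 at 6 h. The sum of 6 h replicate 1 thus lay between those of the 2 h libraries. At rest the sums were 43432 and 77841. Bub1b, of the spindle checkpoint, rose from 490 and 359 to 752 and 1338, with 1099 and 2124 at rest.

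Small changes in the growth machinery depended on the scaling. Of 73 ribosome biogenesis genes 30 fell and 4 rose, none by 2-fold, with a median of -0.14. With equal totals 19 fell and 17 rose, so the list had no direction under that scaling. Polr1b, a subunit of RNA polymerase I, went from 955 and 939 at rest to 4558 and 4203 at 2 h and 2747 and 2542 at 6 h (log2 change -0.73, SE 0.10, adjusted p = 1.12e-05). Nop56, a core protein of box C/D particles, held at 17488 and 16457 and 16072 and 14472, against 4714 and 4952 at rest, and was not called (adjusted p = 0.145). Imp3, of the small subunit processome, rose from 1004 and 1156 to 2089 and 1890, with 1520 and 1596 at rest. Of 75 ribosomal protein genes 11 fell (14.7%, below the 24.3% of all genes) and none rose, all under 2-fold. With equal totals 2 fell and 1 rose. Rpl3, which fell most, went from 36286 and 36841 to 25354 and 27900.

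Of 20 aminoacyl-tRNA synthetases, which load tRNAs with amino acids, 10 rose, 1 fell and 9 were not called (14 and none with equal totals). Farsb, the phenylalanine enzyme's beta subunit, went from 1819 and 1989 at 2 h to 3935 and 3649 at 6 h with 960 and 1428 at rest. Rars, for arginine, went from 8979 and 8592 to 7115 and 7597, a call that was lost in 5 alternatives, with adjusted p from 0.0579 without 2 h replicate 2 to 0.419 with quantile normalisation. Of 23 genes of purine and pyrimidine synthesis 11 rose, 2 fell and 10 were not called (13 and 2 with equal totals). Cad, the enzyme of the opening steps of pyrimidine synthesis, rose from 6923 and 7277 to 11725 and 12576 with 4221 and 4395 at rest (log2 change 0.77, SE 0.08, adjusted p = 3.19e-07), and Ctps2, a CTP synthase, fell from 2250 and 2140 to 951 and 849.

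Of 34 chaperones 11 rose (32.4%, against 24.3% of all genes), 6 of them by at least 2-fold, 2 fell and 21 were not called (21 rose and 1 fell with equal totals). Sdf2l1, an endoplasmic reticulum protein, was at 438 and 541 at rest, 1111 and 1003 at 2 h and 3409 and 6990 at 6 h, and although its 6 h replicates differed from each other by more than 2-fold both lay above every earlier value (log2 change 2.21, SE 0.22, adjusted p = 2.58e-07). It was back at 1740 and 2016 by 12 h. The other 5 with 2-fold rises, picked out after their values were seen, were Hyou1, Pdia6, Pdia4, Hsp90b1 and Dnajc3, all known as residents of the endoplasmic reticulum. Hyou1, an HSP70 relative, went from 15118 and 14024 to 28295 and 48449 and Pdia6, a disulfide isomerase, from 20097 and 20583 to 42994 and 53173. Bag3, a cochaperone of cytosolic HSP70, fell from 9686 and 8832 to 5649 and 7442, which was not called without 6 h replicate 1 (log2 change -0.31, adjusted p = 0.0586). Proteasome genes rose in 10 of 33 (30.3%, against 24.3% of all genes) and fell in 1 (26 and none with equal totals), all under 2-fold. Psmd13, a lid subunit, rose from 3593 and 3662 to 4804 and 5075, and Psme3, an activator subunit, went from 8387 and 8565 to 6905 and 6926, a fall not called with equal totals (log2 change -0.13, adjusted p = 0.176) or with quantile normalisation (-0.12, adjusted p = 0.178).

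In the amino acid response driven by ATF4, 10 of 29 members fell (34.5%) and 7 rose (24.1%). Of all genes 24.3% were called in each direction. With equal totals 9 members fell and 12 rose. Chac1, a glutathione-degrading enzyme, peaked at 1841 and 1335 at 2 h and was at 207 and 285 at 6 h with 203 and 94 at rest (log2 change -2.69, SE 0.30, adjusted p = 1.07e-06). Asns, asparagine synthetase, stayed high, with 6446 and 6144 and 6302 and 9901, and was not called (log2 change 0.33, adjusted p = 0.151). Its change ran from 0.0020 without 6 h replicate 2 to 0.65 without 6 h replicate 1, where it was called (adjusted p = 0.0085), as it was with equal totals (0.49, adjusted p = 0.0285). Slc7a3, a cationic amino acid transporter, rose from 28 and 21 to 55 and 71 at low values, and the call was missed without 2 h replicate 2 (log2 change 1.13, adjusted p = 0.0749), without 6 h replicate 2 (1.15, adjusted p = 0.0678) and with quantile normalisation (0.99, adjusted p = 0.0707).

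Of 24 sterol synthesis genes 11 fell and 5 rose (10 and 6 with equal totals). Hsd17b7, of the late sterol pathway, fell from 5005 and 5150 to 2198 and 2206, while Hmgcs1, the synthase that precedes HMG-CoA reductase, rose from 3885 and 3628 to 6102 and 9309 but remained below its 11630 and 12909 at rest. Of 15 fatty acid genes 9 fell and 1 rose (6 and 3 with equal totals). Acss2, the cytosolic acetyl-CoA synthetase, fell from 518 and 620 to 93 and 92 with 942 and 930 at rest (log2 change -2.60, SE 0.17, adjusted p = 1.4e-09). Scd2, a stearoyl-CoA desaturase, rose from 36700 and 34163 to 46697 and 51436 but remained below its 74488 and 75858 at rest. The call of Scd2 was lost without 2 h replicate 2 (log2 change 0.42) or 6 h replicate 2 (0.40). In glycolysis 6 of 25 fell and 5 rose (6 and 9 with equal totals). Pdk4, which shuts pyruvate dehydrogenase, fell from 3419 and 3002 to 1111 and 1255, and Pfkl, the liver-type phosphofructokinase, rose from 3997 and 4883 to 7363 and 7706. Of 17 interferon-stimulated genes 5 rose (29.4%) and 4 fell (23.5%), against 24.3% of all genes in each direction (6 and 2 with equal totals). Ifit2 came back from 160 and 171 to 971 and 765 with 946 and 1013 at rest, and Gbp2, a guanylate-binding protein, went from 550 and 551 to 106 and 106 with 626 and 651 at rest.

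Some of the deepest falls were of genes that were not above rest at 2 h. Agtr2, the angiotensin II type 2 receptor, was at 1427 and 734 at rest, 375 and 358 at 2 h, 5 and 7 at 6 h and 15 and 8 at 12 h (step -5.73 on the log2 scale (SE 0.36, adjusted p = 1e-09)), so that it was nearly silent after 6 h. Megf6, a protein with EGF-like repeats, had 234 and 95 at rest, 244 and 143 at 2 h and 16 and 7 at 6 h. Gdf5, a bone morphogenetic protein family ligand and a line gene, went from 777 and 789 to 136 and 59 with 807 and 594 at rest. Other deep falls were of line genes that stood above rest at 2 h. Scara5, a ferritin receptor, had the largest log2 change of all at -6.89, from 187 and 222 to 2 and 0 with 80 and 80 at rest, and was at 432 and 411 and 59 and 31 in doxycycline at 2 h and 6 h. Arc, a synaptic immediate early gene, was at 28 and 29 at rest, 661 and 645 at 2 h and 34 and 15 at 6 h. Sft2d2 went from 79 and 80 at rest to 160 and 210 and 14 and 12, and Abi3bp from 115 and 55 to 282 and 443 and 59 and 12. Rn7sk, the noncoding RNA that restrains P-TEFb, is a line gene whose fall rests on 2 h replicate 2: its log2 change of -4.05 became -1.23 (adjusted p = 0.456) without that library. The call was also lost without 6 h replicate 1 (adjusted p = 0.102) and in the fit of only the groups compared (adjusted p = 0.0608).

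The doxycycline libraries measured what the same interval brought without added serum. There 724 genes were called (6.46%). The difference between the serum step and the doxycycline step, which share no library, was called in 3718 genes (33.2%), 1956 (17.5%) with a more positive and 1762 (15.7%) with a more negative change in serum. With equal totals these were 3329 and 1124. Of the 37 immediate early transcription factors 27 had a more negative change in serum and 1 a more positive one, of 22 ERK inhibitors 14 and none, and of 44 secreted factors and receptors 22 and none. More positive in serum were 14 of 42 replication genes, 17 of 33 proteasome genes and 13 of 34 chaperones, and more negative 1, none and none. Inhba, at 811 and 1043 and 632 and 703 in doxycycline, had a difference of -3.14 (SE 0.25, adjusted p = 9.14e-08), and Fosb, at 152 and 120 and 149 and 168, of -4.00 (SE 0.44, adjusted p = 3.02e-06). Mllt3 rose in doxycycline too, from 3732 and 3709 to 5942 and 5331, and the serum step was larger by 2.25 (adjusted p = 1.22e-09). Txnip went from 5373 and 7003 to 8814 and 9114, and its serum step was larger by 2.68 (adjusted p = 1.8e-05).

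For several line genes the difference between the fall in serum and the fall in doxycycline was not called. Ddx3y was at 103 and 71 at 2 h and 31 and 18 at 6 h of doxycycline, and its difference was -0.03 (adjusted p = 0.971). For Postn the difference was -0.68 (adjusted p = 0.414), for Dusp4 -1.05 (0.369), for Serpine2 -1.15 (0.14), for Abi3bp -1.67 (0.117), for Tgfb2 -0.76 (0.188) and for Atf3 -2.33 (0.121), with SEs from 0.43 to 1.13. None of these passed the threshold, which does not show that the steps were alike. Dusp4 was at 134 and 248 at 2 h and 101 and 18 at 6 h of doxycycline. In the E2F1 line at 0 h Dusp4 was at 202 and 96 and Atf3 at 169 and 94. These values lay below their 3571 and 3428 and 575 and 673 at 2 h of serum. Serpine2, at 3505 and 3480, and Abi3bp, at 1061 and 787, were higher in the E2F1 line at 0 h than at 2 h of serum. Arc (-3.13, adjusted p = 0.000276), Scara5 (-3.62, adjusted p = 0.00115) and Gas6 (-1.27, adjusted p = 0.01) are line genes whose fall was larger in serum.

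**Figure D5:**
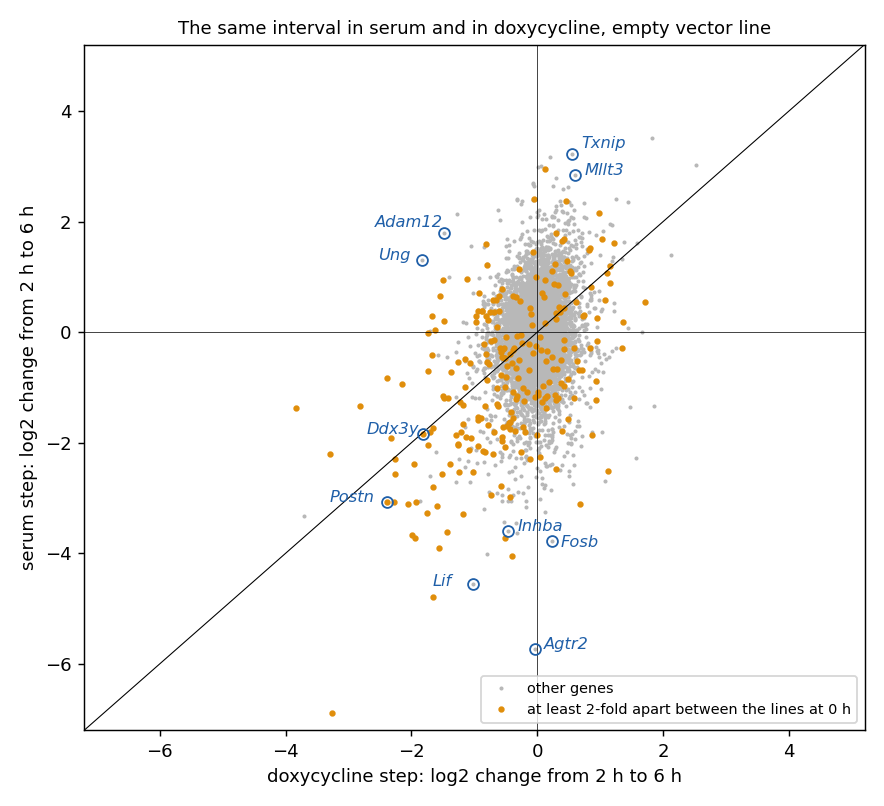
Log2 change from 2 h to 6 h in serum (y axis) against that in doxycycline (x axis) for all 11208 genes of the EV line, with the 239 genes at least 2-fold apart between the lines at 0 h in orange and 10 named genes circled. Agtr2, Fosb and Inhba lie far below the diagonal near 0 on the x axis, whereas Ddx3y and Postn lie near the diagonal.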

How the data were processed

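RNA of starved EV cells given 10% serum for 2 h or 6 h was compared, with groups and replicate numbers taken from the labels. Libraries of poly(A)-selected RNA were read as 150 bp pairs, per the labels' protocols. The submitters' processing notes name FastQC, Trimmomatic, HISAT2, featureCounts and DESeq2 and the build mm10. The roles of these tools, the use of strand and the annotation release are not given in the sources used here. The deposited table holds normalised counts that the authors scaled and rounded, so each value was treated as a score and not as a raw count. Scaling by the authors fixes the zero of every change.

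The analysis used limma 3.58.1 on log2(value + 1), with 11 group means over 22 libraries (11 residual degrees of freedom), empirical Bayes with a mean-variance trend, and Benjamini-Hochberg adjustment over 11208 genes. A filter of at least 10 in 2 libraries removed 0 genes, and the lowest mean of a gene over all libraries was 99.6. Tested on simulated data for this step, the code called 83 of 91 genes changed by a log2 of 1, 105 of 109 changed by a log2 of 2 and 9 unchanged genes. The simulation gave a gene the same spread in every group and changed few genes. In the data 5440 genes were called, and the 6 h replicates of serum differed most of the 11 groups. The 9 wrong calls are therefore no measure of the error rate of this step. With 2 libraries a group, variation between replicates limits the precision.

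The members, the 28 gene lists and the rule for naming genes were chosen with earlier results of these data known. The rule named the 12 largest rises and falls among called genes whose higher group averaged 50 or more and whose libraries do not overlap, the called extremes of each list, the 3 highest and lowest differences from the doxycycline step, and a fixed set of genes. It gave 104 genes, and others are said to be picked out after their values were seen. Line genes were defined by a fold of at least 2 between the lines at 0 h, with libraries that do not overlap, and leaving them out, like a fit without the doxycycline 2 h libraries, was chosen after seeing the data. Other alternatives were a pseudocount of 8, no filter, a mean of at least 500, equal totals, quantile normalisation, a fit of only the groups compared, the replicate number as a block, and each replicate left out.

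Gene positions, exon overlaps and 3′ untranslated regions are from GENCODE M21 (GRCm38), in which all 11208 gene identifiers were found, 10977 with the same version. The coding transcript with the longest coding part was used. Besides Txnip, Ccnd1 and Dusp1, exons of other annotated genes overlap Acss2, Cdk6, Cdkn1a, Farsb, Fbn1, Fgf10, Fosl1, Gas6, Gbp2, Gdf5 and Hmgcs1. The same holds for Junb, Nop56, Psmd13, Rpl3, Scd2, Tgfb2 and Zfp36. How reads in such exons were assigned is not given in the sources used here. Promoters are from RefSeq (GRCm38.p6). Some genes that met the rule may not be reported here.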

Additional observations from a re-analysis of the deposited data

Results flagged for a closer look

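A total of 10 genes are listed because their change from 2 h to 6 h differed between serum and doxycycline in the test of the difference itself, with limma's adjusted p over all genes. They come from the 12 genes that the naming rule took for this comparison, so they were chosen in part for a large difference. More negative in serum were Agtr2 (-5.69), Fosb (-4.00), Gdf5 (-3.79), Inhba (-3.14) and Fos (-2.41). More positive were Adam12 (3.28), Ung (3.14), Clip4 (2.98), Ccnd1 (1.70) and Hmgcs1 (1.04). Adam12, a metalloprotease, rose in serum from 3333 and 3820 at 2 h to 10254 and 14999 at 6 h, whereas in doxycycline it was at 740 and 1094 at 2 h and 348 and 298 at 6 h. Ung rose in serum from 135 and 216 to 465 and 385, and in doxycycline it was at 238 and 155 at 2 h and 39 and 72 at 6 h. For both genes the serum libraries moved up and the doxycycline libraries down. Adam12 and Ung were not among the line genes, and Gdf5 was. At 0 h, however, Ung and Clip4 were higher in the E2F1 line by a log2 of 0.89 and 0.96, just under the 2-fold cutoff. The doxycycline steps, which start from the 2 h libraries doubted above, were -1.84 for Ung and -1.48 for Adam12. At rest Adam12 was at 377 and 427 and Ung at 90 and 164. The part of the 2 h doxycycline levels in these differences was not tested. Egr1 (0.26, adjusted p = 0.572) and Myc (-0.42, adjusted p = 0.141) did not pass the threshold, although Myc did without 6 h replicate 1 (-0.65, adjusted p = 0.0261).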

How the results depend on the processing

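The count of calls in the serum step ranged from 4312 in the fit of only the groups compared to 5870 with equal totals, and from 4362 to 4739 with each of its libraries left out, against 5440 reported. Equal totals gave 1793 lower calls, and in the difference from the doxycycline step 3329 more positive and 1124 more negative calls. At a mean of at least 500, which tests 8730 genes, 695 genes were at least 2-fold changed and 263 at least 2-fold higher, and quantile normalisation left 344 at least 2-fold higher. Calls of the difference ranged from 2985 to 3445 with a library left out. A replicate left out leaves a single library, which is assumed to vary like the other groups. The filter changed nothing.

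With the replicate block 5566 genes were called in the step and 3857 in the difference. Same-numbered libraries deviated together in some EV groups and not in others, with r above 0.1 in 8 of 21 pairs of groups, from -0.16 to 0.45, and r = -0.09 between 2 h and 6 h of serum. The numbers were therefore not taken to pair them, and the block lost no call of a named gene.

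Of 1352 values of named genes under the alternatives, 1299 kept direction and side of the threshold, 37 lost the call, 6 gained it and 10 changed sign. Changes of sign befell only genes that were not called. With equal totals Myc gave 0.074, Mcm5 0.025 and Nop56 0.0069, and with quantile normalisation Myc gave 0.036 and Nop56 0.023. With a replicate left out Dusp1 ran from -0.43 to 0.67, Egr1 from -0.18 to 0.47, Myc from -0.32 to 0.14, and the difference for Egr1 from -0.067 to 0.59. The cause was not tested. Depth is unknown in reads, since the counts were scaled.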

Other observations

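Fibroblast markers fell more often than they rose between 2 h and 6 h of serum. Of 11 markers 7 were called lower (63.6%) and 2 higher (18.2%), against 24.3% of all genes in each direction. Their median log2 change was -0.43, against -0.0039 for all genes. With equal totals 4 were lower and 2 higher. Col3a1, the chain of type III collagen, went from 142180 and 185112 at 2 h to 47215 and 35990 at 6 h, and to 17487 and 24458 at 12 h, against 193386 and 186691 at rest (step log2 change -1.98, SE 0.19, adjusted p = 1.73e-07). Col1a2, a chain of type I collagen, was at 246708 and 277094 at 2 h and 258405 and 250120 at 6 h and was not called (adjusted p = 0.833). Dcn, the proteoglycan decorin, went from 19149 and 22373 to 10113 and 7681, and Thy1, a surface glycoprotein, rose from 17143 and 19324 to 26959 and 22264. Pdgfra, the receptor for PDGF, had its large drop before 2 h, with 71387 and 57591 at rest, 10326 and 10304 at 2 h and 8469 and 5245 at 6 h. Fewer cells with a transcript and less of it per cell cannot be told apart in such bulk samples.

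Genes that changed at least 2-fold spanned more of the genome than others. The median span was 32.7 kb for those that fell, 29.0 kb for those that rose and 23.3 kb for all genes, and 33.1 kb and 28.0 kb without line genes. Medians of annotated exons, merged over transcripts, were 11 for genes that fell, 9 for those that rose and 9 for all.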
